A study of Ovis aries with 18 samples.

Results

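The positions described here are 590 autosomal single nucleotide polymorphisms (SNPs) in 387 genes at which the reference base was A and the alternate base G, or the reference T and the alternate C, and at which 15 or more of 18 fetal lambs were called heterozygous. They were taken from a table of 24355 SNPs in 5810 genes, of which 8032 were autosomal SNPs of these 2 substitutions. Members were chosen by substitution and genotype call alone, except that the SNPs of 1 gene, itself a known RNA editing target, were left out. There were 302 A/G and 288 T/C members, and 236 members were called heterozygous in all 18 animals.

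The animals were wild type pure bred merino fetuses with the same sire (16 females and 2 males), sampled at 132 days post conception without any treatment. RNA of perirenal adipose tissue, the fat around the kidney, was sequenced as paired end reads of 100 bp, and the whole set of animals forms a single condition. Each fetus is a biological replicate, but it contributes only 1 library, so biological and technical spread cannot be told apart. The alternate share is the fraction of reads at a SNP that carried the alternate allele, and it was computed in each animal called heterozygous.

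In mammals, ADAR enzymes convert adenosine to inosine in double stranded RNA, and inosine is read as G by a sequencer. Such editing is known for a few recoded codons and for clusters of sites in the 3' UTRs of mRNAs, where inverted repeats fold back on each other. An edited adenosine appears as A/G when the gene lies on the forward strand and as T/C when it lies on the reverse strand. An inherited heterozygous SNP gives reads of both alleles from the 2 chromosomes, and reads from a near-identical gene copy can be placed on the same position and give the same appearance. The strand of each gene was not used here, the library kit does not mark strand, and no genomic DNA of the animals was analysed, so these sources were not separated. The authors also state that alternate allele reads are mapped to their right place less readily than reference reads. Over the autosomal SNPs tested the median reference share was 0.518. The shares were not corrected for such a bias, and its part in them was not tested. The calls and the shares come from the same reads, so the shares of the members are a description.

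The counted reads over all SNPs of the table numbered 2970824 to 5334585 per animal, and the median depth at the members was 36 to 67 reads per animal. Between 528 and 565 of the members (89.5% to 95.8%) were heterozygous in a given animal. RS929, labelled female, was called heterozygous at 29.1% of X-linked SNPs, whereas the other females lay between 54.1% and 69.7% and the males between 25.4% and 32.4%. Chromosome X holds no member. Without RS929 the median share of the members was 0.467, as with it. The tissue markers could be checked only where their genes held listed SNPs, which 7 of 10 brown adipocyte genes and 0 of 5 kidney genes did. So did 2 of 3 endothelium, 1 of 6 blood and immune, 1 of 5 adrenal and 0 of 5 skeletal muscle genes. The purity of the tissue was not tested.

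Being heterozygous in most animals was about as frequent in this class of substitution as in its reverse. Of the A-to-G type SNPs on the autosomes 7.35% were members, compared with 718 of 10799 G-to-A type SNPs (G/A and C/T, 6.65%). Of the transversions, which exchange a purine and a pyrimidine, 1056 of 5277 (20.01%) were heterozygous in 15 or more animals. The same order was not seen when genes were counted: 10.6% of the genes with A-to-G type SNPs, 10.8% of those with G-to-A type SNPs and 18.4% of those with transversions held at least 1. Among the members, A/G (7.71% of its class) and T/C (6.997%) were alike in frequency.

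The mean alternate share of a member had a median of 0.467 (quartiles 0.388 and 0.507) and ranged from 0.103 to 0.866. Most members, 399 (67.6%), lay between 0.4 and 0.6. A further 95 (16.1%) lay under 0.3, 67 (11.4%) between 0.3 and 0.4, and 29 (4.92%) over 0.6. Over all autosomal A-to-G type SNPs only 2.64% lay under 0.3 and 90.4% lay between 0.4 and 0.6, while G-to-A type SNPs heterozygous in 15 or more animals had 12.1% under 0.3 and 68.1% in the middle range. The low tail was present in both directions of the transition. It was larger in the transversions heterozygous in 15 or more animals, with 22.8% under 0.3 and 42.5% in the middle range. The median share over an animal's heterozygous members lay between 0.435 and 0.462 in the 18 animals (0.449 ± 0.00857, SD). Such a median does not show whether single members differed between animals.

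**Figure D1:**
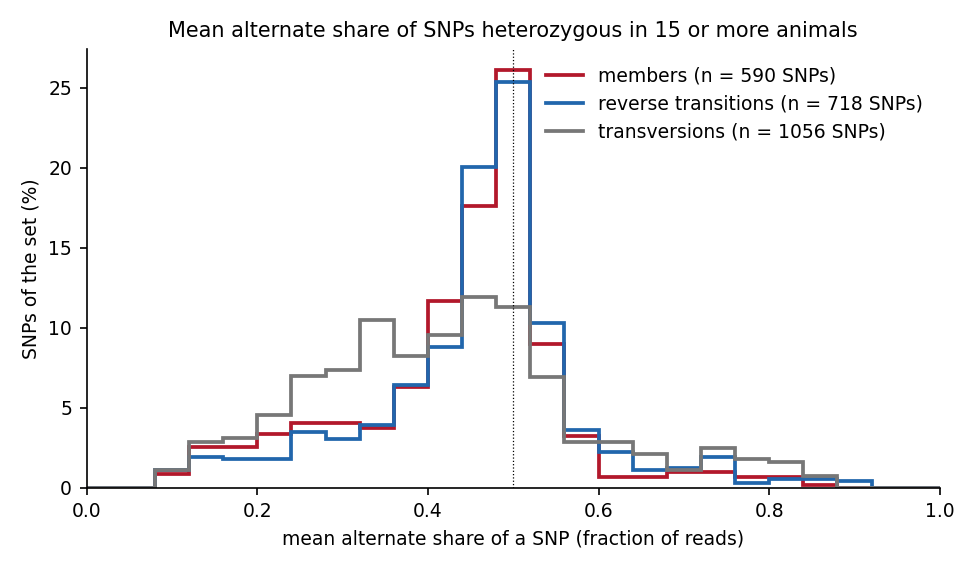
Percentage of SNPs (y axis) by mean alternate share (x axis, fraction of reads, bins of equal width) for the 590 members, the 718 reverse transitions and the 1056 transversions that were heterozygous in 15 or more animals. The curves of the members and of the reverse transitions peak near an equal share (dotted line) with a tail toward low shares, and 16.1% of members lie under 0.3.

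Low shares were more frequent among members with more heterozygous animals. Of the 198 A-to-G type SNPs heterozygous in 14 animals, just outside the limit, 5 (2.53%) had a share under 0.3, and of the 123 members heterozygous in 15 animals, just inside it, 6 (4.88%) had. The medians of these neighbours were 0.483 and 0.487. At 17 animals 14.9% of 101 members lay under 0.3, and at 18 animals 28.4% of 236, with a median of 0.403. Among G-to-A type SNPs heterozygous in all 18 animals 18.3% of 289 lay under 0.3, and at 15 animals 5.68% of 176. Transversions did not follow this order, with 20 of 80 under 0.3 at 15 animals, 38.1% of 126 at 17 and 20.1% of 770 at 18.

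The list of known editing targets held 1 member. COPA encodes the alpha subunit of the COPI vesicle coat, and an edited codon of it is known in mammals. Its missense T/C SNP on chromosome 1 at position 109669349 (Oar v3.1, as are all positions here) was heterozygous in all 18 animals. The share was lowest at 0.480, had a median of 0.553 and was highest at 0.660, with a mean of 0.560 ± 0.0489 (SD, n = 18) over 131 to 230 reads per animal. The animals overlapped in a narrow band, and the spread gave a dispersion of 1.81, where 1 is counting error alone (Pearson chi-square test of equal shares, Benjamini-Hochberg adjusted p = 0.0988). The nearest listed SNP lay 18842 bp away, and the other COPA SNP of the table, a synonymous G/A change at position 109632346, was heterozygous in 8 animals with a share of 0.501 ± 0.0303 (SD, n = 8).

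Of the 26 genes on that list 8 were in the table, with 15 autosomal A-to-G type SNPs, so that 1 of 15 (6.67%) was a member, against the 7.35% above. The gene left out by the rule is a target of this kind and is not in these counts. AZIN1, the antizyme inhibitor, has a coding site that is edited in human tissues. Its A/G SNP at position 74243760 of chromosome 9 was annotated as a stop retained variant, not as a missense change. That SNP was heterozygous in 8 animals, with 9 called homozygous for the reference and 1 for the alternate allele. The genes of the enzymes themselves, ADAR with 5 and ADARB1 with 1 listed SNP, held no member.

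Several members stood in short runs of like orientation with no other such SNP close by. A run was taken as members no more than 100 bp apart. There were 63 runs of 2 or more, with 151 members, and 14 runs of 3 or more, with 53 members. Of the 14, 5 held a single orientation, all of them A/G, and none of the 5 had any other SNP heterozygous in 15 or more animals within 100 bp. These 5 were singled out after their values were seen. They lay in the 3' UTRs of EPB42, ADRA1A, AADAT and MYH10 and in the coding sequence of NUDT19. Among G-to-A type SNPs heterozygous in 15 or more animals, 6 of 22 runs of 3 or more held a single orientation. None of those 6 was annotated to a 3' UTR, and 4 of them had other such SNPs within 100 bp. These numbers of runs are small and were not tested against each other.

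EPB42, band 4.2 of the red cell membrane, held 6 members in its 3' UTR on chromosome 7, all A/G and each heterozygous in all 18 animals. The 5 of the run lay between positions 35461340 and 35461417 and the sixth at 35461617. At the adjoining positions 35461340 and 35461341 the shares were 0.511 ± 0.0900 and 0.410 ± 0.0774, and 3 bp on, at 35461344, the share was 0.209 ± 0.0532 (SD, n = 18). At 35461340 the animals ranged from 0.375 through a median of 0.526 to 0.667, and at 35461344 from 0.139 through 0.192 to 0.293. The animals did not overlap between the first and the last of these positions, which lie within the length of a single read. Positions 35461416 and 35461417 gave 0.330 ± 0.0696 and 0.437 ± 0.0810, and the sixth member gave 0.280 ± 0.0681 (SD, n = 18). The dispersion was between 0.830 and 1.54 at the 6 members. Within 1000 bp of the run the table listed 8 SNPs, of which 7 were A/G. The seventh, at 35461427, was heterozygous in 14 animals with a share of 0.160 and so fell just outside the rule.

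ADRA1A encodes the alpha-1A adrenergic receptor. The 3' UTR of this gene on chromosome 2 held a run of 4 A/G members, at positions 38748298, 38748316, 38748332 and 38748337, and a further A/G member at 38747646, all heterozygous in 18 animals. Their shares along the run were 0.216 ± 0.0813, 0.312 ± 0.116, 0.391 ± 0.113 and 0.555 ± 0.136 (SD, n = 18), and the member apart from the run gave 0.207 ± 0.109. The shares thus stepped up along 40 bp. At 38748298 the lowest, median and highest animals were at 0.0870, 0.220 and 0.389, and at 38748337 at 0.286, 0.572 and 0.750. Median depth was 30.5 to 41 reads per animal, so single values carry wide counting error. The 4 other SNPs listed within 1000 bp were C/T, G/A and T/C changes heterozygous in 9 to 13 animals.

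AADAT, an aminotransferase of kynurenine and lysine breakdown, held 3 A/G members in its 3' UTR on chromosome 2. The shares were 0.222 ± 0.0545 (SD, n = 18) at position 109981564, 0.126 ± 0.0348 (SD, n = 17) at 109981601 and 0.180 ± 0.0534 (SD, n = 18) at 109981612. At the last of these the animals ranged from 0.110 through 0.179 to 0.270. Animals differed beyond counting error there (dispersion 2.94, adjusted p = 7.70e-04). A pair of A/G SNPs in the same stretch, at 109981528 and 109981593, was heterozygous in only 6 and 4 animals, with shares of 0.0881 and 0.0928. Between them, at 109981551, lay a G/A change heterozygous in 6 animals with a share of 0.395. Of the 9 SNPs listed within 1000 bp of the run, 4 were substitutions other than A/G.

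MYH10, a nonmuscle myosin heavy chain, held 3 A/G members at every other base of a stretch of its 3' UTR on chromosome 11, at positions 27626583, 27626585 and 27626587. Each was heterozygous in 17 animals, and the shares were 0.209 ± 0.0384, 0.190 ± 0.0533 and 0.185 ± 0.0615 (SD, n = 17). The values of the 3 positions overlapped. At each position the remaining animal was called homozygous for the reference, yet its alternate share was 0.0702, 0.126 and 0.107 in the same order. In NUDT19, a hydrolase of coenzyme A, the run of 3 A/G members on chromosome 14 changed coding bases, and each was heterozygous in 16 animals. At positions 42470236 and 42470243, both missense, the shares were 0.353 ± 0.0871 and 0.338 ± 0.0953, and the remaining 2 animals were called homozygous for the alternate allele. At the synonymous position 42470286 the share was 0.654 ± 0.0974 (SD, n = 16) and the remaining 2 were called homozygous for the reference. A further A/G member, at 42470392, had a share of 0.471. The only other SNP listed within 1000 bp of the NUDT19 run was a G/T change at 42470214, heterozygous in 11 animals with a share of 0.303.

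**Figure D2:**
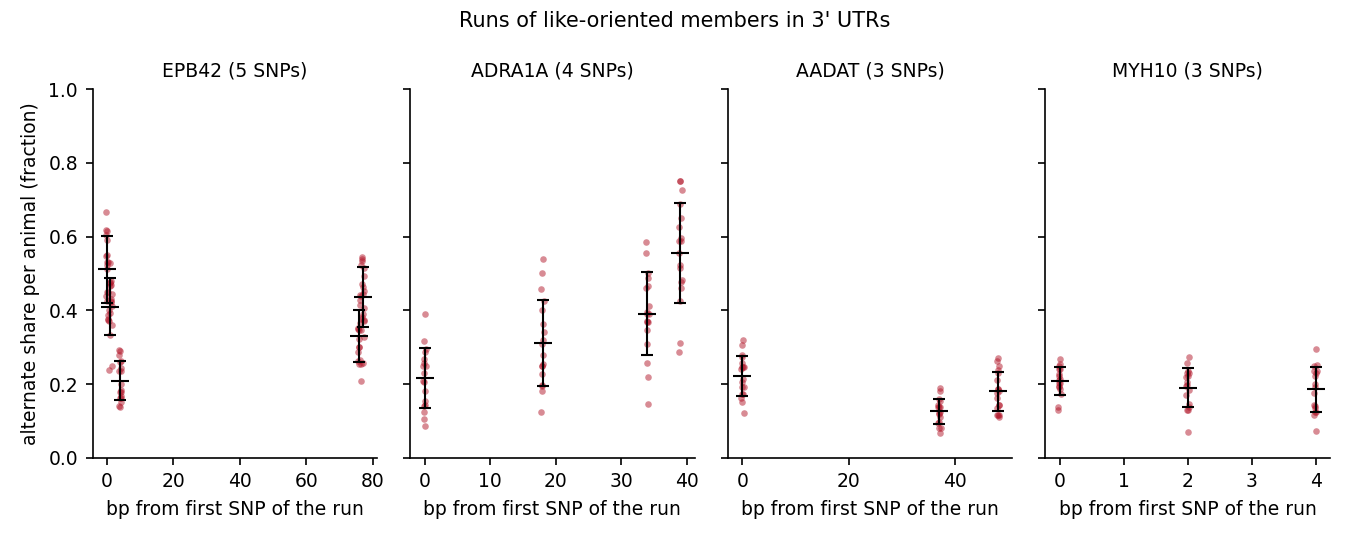
Alternate share in each heterozygous animal (points, y axis, fraction of reads) against distance from the first SNP of the run in bp (x axis), for the runs in the 3' UTRs of EPB42, ADRA1A, AADAT and MYH10; bars give the mean and SD over 17 or 18 animals. Shares at neighbouring positions differ in EPB42 (0.511 and 0.209 at 4 bp apart) and ADRA1A (0.216 to 0.555), and overlap in MYH10 (0.185 to 0.209).

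The low shares elsewhere mostly came with other variable bases within a few bp. The nearest listed SNP of any kind lay within 10 bp of 70 of the 95 members under 0.3 (73.7%) and within 100 bp of 85 (89.5%), at a median of 3 bp. Of the 399 members between 0.4 and 0.6, 21.6% had one within 10 bp and 48.1% within 100 bp, at a median of 114 bp. Members over 0.6 resembled the low ones, with 58.6% within 10 bp. Close neighbours were as frequent at low shares in the reverse class: of the 87 G-to-A type SNPs under 0.3, 73.6% had a listed SNP within 10 bp. Among A-to-G type SNPs heterozygous in 5 to 14 animals it was 49.1% under 0.3 and 9.13% between 0.4 and 0.6.

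Where the neighbour was itself heterozygous in 15 or more animals, its share was usually almost equal. There were 209 members with such a neighbour within 10 bp, which was a transversion for 112, another member for 57 and a G-to-A type SNP for 40. The median absolute difference of the mean shares was 0.00833, and 173 pairs (82.8%) differed by at most 0.05. Both positions of such a pair are read by the same fragments, so they are not separate measurements. The largest differences were at OAS2 position 61042711, at 0.112 beside a transversion 1 bp away at 0.833, and at LETM1 position 116107019, at 0.139 beside one 5 bp away at 0.735.

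**Figure D3:**
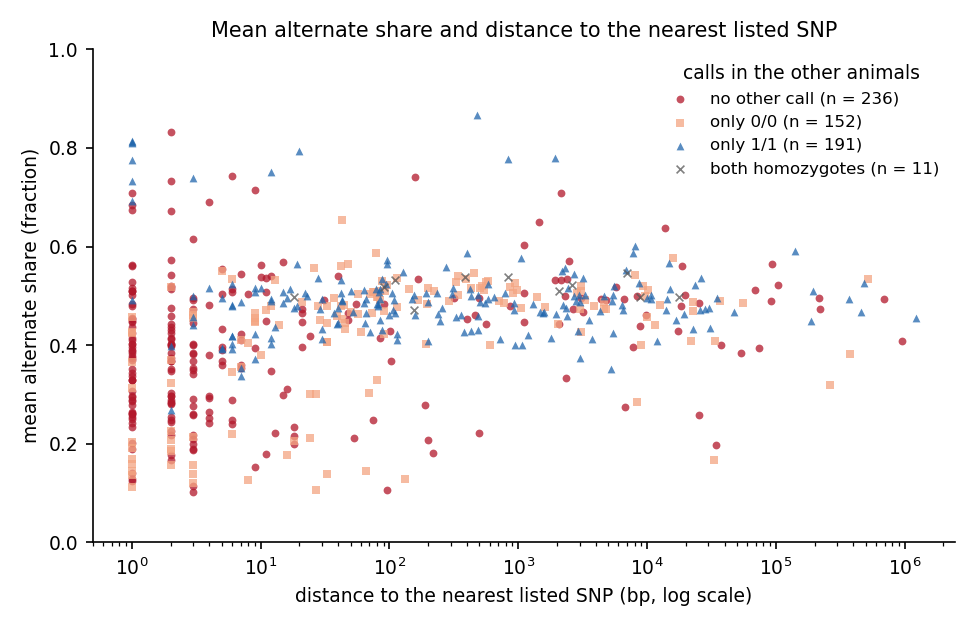
Mean alternate share of each of the 590 members (y axis) against the distance to the nearest listed SNP of any kind in bp (x axis, log scale), with symbols for the genotype calls of the animals that were not heterozygous. Low shares gather at distances of a few bp among members with no other call or with reference homozygotes only, and members with alternate homozygotes lie mostly near 0.5.

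The genotypes of the remaining animals differed with the share as well. Of the 95 members under 0.3, 67 had no homozygous animal, 27 had only reference homozygotes and 1 had only alternate homozygotes. Of the 399 members between 0.4 and 0.6, 110 had no homozygous animal, 111 only reference homozygotes, 167 only alternate homozygotes and 11 both. The member with the exception was in PNISR, a splicing related protein, on chromosome 8 at position 37452633, where 17 animals had a share of 0.269 ± 0.0313 and the remaining animal, called homozygous for the alternate allele, had 0.0421 of its reads from the reference. Animals called homozygous for the reference with at least 20 reads still carried alternate reads at the low members, with a median of 0.0652 (range 0.0182 to 0.126 over 27 members). The median was 0 for the 118 such members between 0.4 and 0.6, with a wider range of 0 to 0.437.

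Among members heterozygous in all 18 animals with a median of at least 50 reads, the 10 lowest mean shares were between 0.103 and 0.180. HSPG2, which encodes the basement membrane proteoglycan perlecan, was lowest at position 243838593 of chromosome 2, a synonymous T/C change. Animals ranged there from 0.0730 through a median of 0.101 to 0.134, with a mean of 0.103 ± 0.0184 (SD, n = 18) and a dispersion of 0.955. The second HSPG2 member, 21 bp on at 243838614, had a share of 0.115 ± 0.0216, and each had a transversion 3 bp away, with shares of 0.103 and 0.118.

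AHNAK, a very large scaffold protein, had a share of 0.106 ± 0.0301 (SD, n = 18) at position 40277642 of chromosome 21, ranging from 0.0714 through 0.0969 to 0.155. ZNF414, a zinc finger protein, had 0.128 ± 0.0246 at position 14800008 of chromosome 5, beside a G/A change 1 bp away at 0.117. STAT5B, a transcription factor of growth hormone signalling, had 0.153 ± 0.0501 at position 41808578 of chromosome 11. Each of the 10 lowest members stayed at or under 0.303 in every animal.

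The others of the 10 lowest were a further pair of OAS2 members, the AADAT member at 109981612, and members of SAR1A and DVL2. SAR1A, a GTPase of vesicle budding, had 0.167 ± 0.0671 (SD, n = 18) at position 26189916 of chromosome 25, where animals ran from 0.0800 through 0.166 to 0.303 and differed beyond counting error (dispersion 2.27, adjusted p = 0.0189). A second SAR1A member 2 bp away had a share of 0.248. DVL2, a Wnt signal transducer, had 0.178 ± 0.0466 at position 26570292 of chromosome 11, 2 bp from a transversion at 0.161.

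The 5 highest shares by the same limits of 18 animals and 50 reads lay over 0.5 in every animal. Without these limits MPRIP, a myosin phosphatase partner, was highest of all members, with 0.866 ± 0.0293 (SD, n = 15) at position 34500872 of chromosome 11. AKT2, a kinase of insulin signalling, had 0.832 ± 0.0331 (SD, n = 18) at position 48772346 of chromosome 14, a synonymous A/G change, with animals from 0.767 through 0.835 to 0.888. Its neighbour 2 bp away, a transversion, had 0.834. TDP2, a DNA repair phosphodiesterase, had 0.743 ± 0.0563 at position 32030735 of chromosome 20, and GSTP1, a glutathione transferase, had 0.714 ± 0.0752 at position 44694946 of chromosome 21 with animals between 0.548 and 0.851. PLXND1, a semaphorin receptor, had 0.708 ± 0.0289 at position 56039664 of chromosome 19, and the nearest listed SNP lay 2149 bp away.

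KLHL25, a ubiquitin ligase adaptor, held 2 members 6 bp apart in its 3' UTR on chromosome 18. The share was 0.708 ± 0.0306 at position 15752287 and 0.294 ± 0.0311 at 15752293 (SD, n = 18), and their dispersions of 0.591 and 0.597 were under counting error. The transversion beside the first had a share of 0.292 and the C/T change beside the second also 0.292, so that 3 of the 4 positions shared a value and the fourth was its complement.

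**Figure D4:**
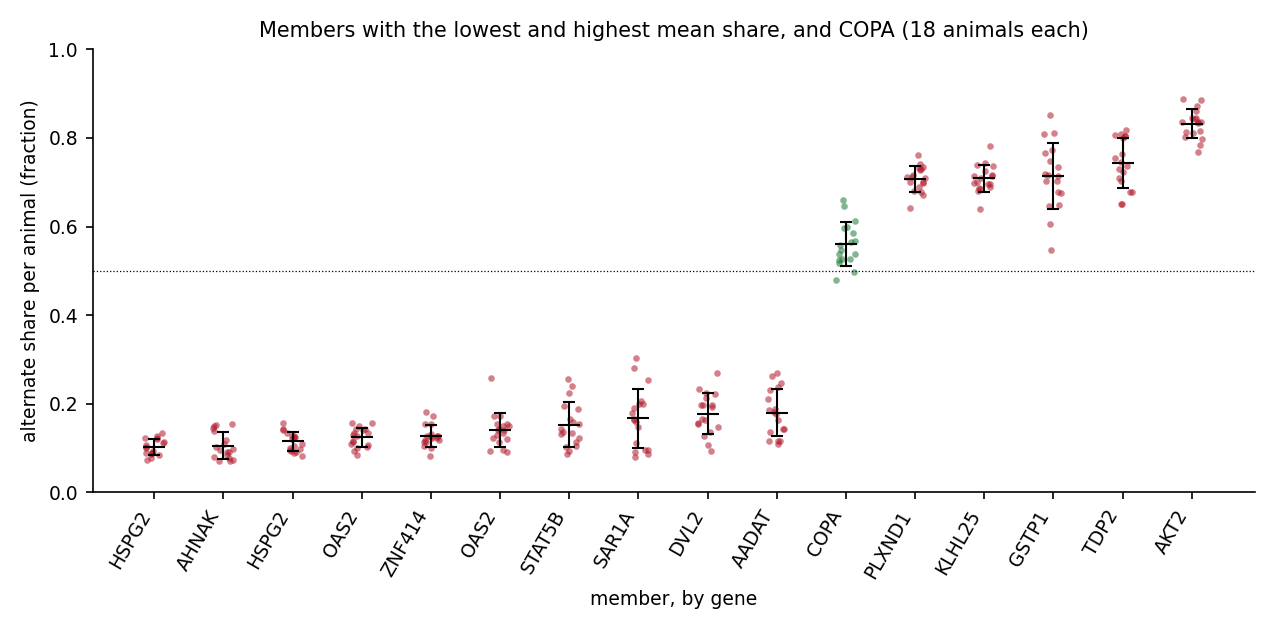
Alternate share in each of 18 animals (points, y axis, fraction of reads) for the 10 lowest and 5 highest members heterozygous in all animals at a median of 50 or more reads, and for COPA (green); bars give the mean and SD, and the dotted line an equal share. The low members lie between 0.0714 and 0.303 and the high ones between 0.548 and 0.888, and only COPA has animals on either side of the line.

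Some low members stood alone. Of the 95 members under 0.3, 10 had no listed SNP within 100 bp, against 207 of 399 between 0.4 and 0.6. The examples here were chosen after their values were seen. PNN, a protein of splicing speckles and desmosomes, had a 3' UTR T/C member at position 48051882 of chromosome 18 with animals from 0.102 through 0.177 to 0.346 (0.199 ± 0.0660, SD, n = 18), and the nearest listed SNP was 34321 bp away. TSPAN9, a tetraspanin, had 0.181 ± 0.0710 (SD, n = 18) in its 3' UTR at position 210551378 of chromosome 3, and the nearest listed SNP was 219 bp away. No other SNP heterozygous in 15 or more animals lay within 1133735 bp of the TSPAN9 member. RASIP1, a Ras interacting protein of endothelium, had a missense and splice region change with 0.274 ± 0.0594 at position 54400865 of chromosome 14. SEMA6A, a semaphorin, also had a missense and splice region change, with 0.223 ± 0.0578 (SD, n = 18) at position 34923871 of chromosome 5. DDX6, a helicase of mRNA decay, had the lowest of the 10, 0.130 ± 0.0414 (SD, n = 16), in its 3' UTR at position 28853896 of chromosome 15, where 2 animals were called homozygous for the reference. FBP2, a fructose bisphosphatase, had 0.166 ± 0.0833 (SD, n = 17) at position 31714333 of chromosome 2.

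Of the 236 members heterozygous in all 18 animals, 57 had no other SNP heterozygous in 15 or more animals within 1000 bp. Their shares were under 0.3 at 8, between 0.3 and 0.4 at 5, between 0.4 and 0.6 at 40 and over 0.6 at 4. The most deeply read of them, chosen here for that depth, was COX4I1, a subunit of cytochrome c oxidase, at position 11253887 of chromosome 14. At a median of 16700 reads its share ran from 0.468 through 0.481 to 0.493 (0.480 ± 0.00649, SD, n = 18). The animals lay close together, yet at this depth they differed beyond counting error (dispersion 3.01, adjusted p = 5.26e-04). EEF1G, a translation elongation factor, had 0.467 ± 0.00939 at position 40307316 of chromosome 21, at a median of 4493 reads.

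Members gathered in some genes. A single member was found in 274 genes, 2 or more in 113 and 5 or more in 14, and 56 genes held both orientations. OAS2, an interferon induced sensor of double stranded RNA, had the most, with 12 of its 41 listed SNPs, and 22 further SNPs of other classes heterozygous in 15 or more animals. Its members had shares from 0.112 to 0.683. The longest run of the whole set, 7 members in 105 bp between positions 61041692 and 61041796 of chromosome 17, held 2 A/G and 5 T/C members at shares from 0.125 to 0.452, with 6 other SNPs heterozygous in 15 or more animals among them. At 61041693 the animals ran from 0.0853 through 0.129 to 0.156 with a dispersion of 0.595, and at the adjoining 61041692 from 0.242 through 0.330 to 0.413, without overlap.

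TNXB, the matrix protein tenascin X, held 7 members in 2 stretches of chromosome 20, with shares of 0.156 to 0.301. Of its members 2 were heterozygous in all 18 animals and all remaining animals at the other 5 were called homozygous for the reference. At position 26439630 the animals differed most, from 0.121 through 0.256 to 0.544 (dispersion 8.03, adjusted p = 1.02e-17). Next came 6 genes with 6 members each, EPB42 among them, of which AFAP1L1, BAG5 and CD97 are first in alphabetical order and CRNKL1 and SYNE2 the other two.

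BAG5, a chaperone regulator, had shares of 0.393 to 0.433, and all remaining animals were called homozygous for the alternate allele. CD97, an adhesion receptor of leukocytes, had 0.372 to 0.564 with the same kind of remaining animals. AFAP1L1, an actin associated protein, had 0.303 to 0.538, all in its 3' UTR, and its remaining animals were of either homozygote. CRNKL1, a spliceosome protein, had 6 A/G members between positions 38700196 and 38711256 of chromosome 13, each heterozygous in 16 animals, at 0.476 to 0.587. The EPB42 members covered a wider range, 0.209 to 0.511.

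The deposited annotation called 280 members synonymous, 161 missense and 84 3' UTR variants with no further term. Counting every annotation that includes the term, 180 members (30.5%) were missense, against 17.9% of all autosomal A-to-G type SNPs and 28.4% of the G-to-A type SNPs heterozygous in 15 or more. Of the members under 0.3, 40.0% were missense and 22.1% in 3' UTRs, and of those between 0.4 and 0.6, 23.1% and 12.3%. A splice region term was given to 12.6% of the members under 0.3 and 13.8% of those over 0.6. It was given to 4.48% of those between 0.3 and 0.4 and 3.26% of those between 0.4 and 0.6. In 3' UTRs were 14.4% of all members and 14.1% of autosomal A-to-G type SNPs.

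Some members affected a stop codon or an essential splice base. ARHGDIA, which holds small GTPases inactive, had a stop lost A/G change at position 50190485 of chromosome 11, heterozygous in all 18 animals. The animals ran from 0.293 through 0.460 to 0.583 (0.447 ± 0.0885, SD) and differed beyond counting error (dispersion 7.41, adjusted p = 8.01e-17). MAP7D1, a microtubule associated protein, had a splice donor change at position 10843311 of chromosome 1 with 0.811 ± 0.0464 (SD, n = 16), 1 bp from a transversion at 0.810. ARHGEF11, an exchange factor that activates small GTPases, had a splice acceptor change at position 105494668 of chromosome 1 with 0.428 ± 0.122 (SD, n = 18).

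The likelihood ratio test of an equal share, which uses the values behind the genotype calls, gave an unadjusted p under 0.05 at 375 members (63.6%), against 45.0% of all 24244 SNPs tested. With such a p, more reads carried the reference allele at 300 of the 590 members (background 33.8%) and the alternate at 75 (background 11.1%). Both backgrounds are percentages of all 24244 SNPs tested. Of these SNPs 10901 had such a p, 8206 with the reference allele higher and 2695 with the alternate higher. With animals as replicates, in a moderated quasi-binomial F test, 339 members passed (57.5%, background 34.4%). Of the G-to-A type SNPs heterozygous in 15 or more animals 63.6% passed the first of these tests. Nothing is read from these counts, since the share enters the choice of members.

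The spread between animals was compared over the animals called heterozygous only, so an animal far from an equal share may have been called homozygous and left the comparison. At 140 members (23.7%) the animals differed beyond counting error (Pearson chi-square, Benjamini-Hochberg adjusted p under 0.05 over all SNPs), against 15.4% of all SNPs tested and 21.7% of the G-to-A type SNPs heterozygous in as many animals. Without RS929 the number was 136. Of the transversions heterozygous in 15 or more animals 14.8% passed. The median number of heterozygous animals was 17 at the members and at the G-to-A type SNPs, 18 at the transversions and 9 over the table. With every animal of at least 20 reads, whatever its call, 393 members passed. The median dispersion was 1.46 at the members, 1.42 over all autosomal A-to-G type SNPs and 1.40 at the G-to-A type SNPs. By share it was 1.33 under 0.3 and 1.53 between 0.4 and 0.6.

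The largest dispersion, 120, was at a member downstream of DDX17, an RNA helicase, at position 214150734 of chromosome 3. The lowest share was 0.421, the median 0.456 and the highest 0.877 (0.556 ± 0.188, SD, n = 15) at a median of 836 reads. The values left a wide gap, with 11 animals at or under 0.475 and 4 at or over 0.840, and the remaining 3 animals were called homozygous for the reference. TRYPTASE-1, a protease of mast cells, had a missense member at position 953940 of chromosome 24 with 0.244 lowest, 0.621 median and 0.714 highest and a dispersion of 35.3, and 8 animals lay at or under 0.453 and 10 at or over 0.596.

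TKT, the transketolase of the pentose phosphate pathway, had 2 members 96 bp apart on chromosome 19, at positions 47707370 and 47707466. Their shares were 0.573 ± 0.0632 and 0.564 ± 0.0605 (SD, n = 16) at medians of 2901 and 3220 reads, with dispersions of 42.8 and 42.7. CYP2B6, a cytochrome P450, had 0.178 ± 0.131 (SD, n = 15) at position 49547519 of chromosome 14, ranging from 0.0718 through 0.128 to 0.584, with a dispersion of 36.4. A single animal, RS918, made the top of that range, and without it the highest was 0.277, the mean 0.149 and the dispersion 9.81.

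At the other end, some low shares were as even between animals as counting allows. GHITM, a mitochondrial inner membrane protein, had a 3' UTR T/C member at position 38762274 of chromosome 25 with animals from 0.213 through 0.246 to 0.274 (0.244 ± 0.0157, SD, n = 18) at 420 to 646 reads, and a dispersion of 0.695. HDLBP, the RNA binding protein vigilin, had 0.371 ± 0.0248 (SD, n = 18) at position 485982 of chromosome 1 with a dispersion of 0.632, 1 bp from a transversion at 0.368. TUBB2A, a beta tubulin, had 0.106 ± 0.0184 (SD, n = 16) at position 49441713 of chromosome 20 with a dispersion of 0.703. That dispersion leaves out 2 animals called homozygous for the reference. Their mean alternate share was 0.0678, and the lowest heterozygous animal was at 0.0765.

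**Figure D5:**
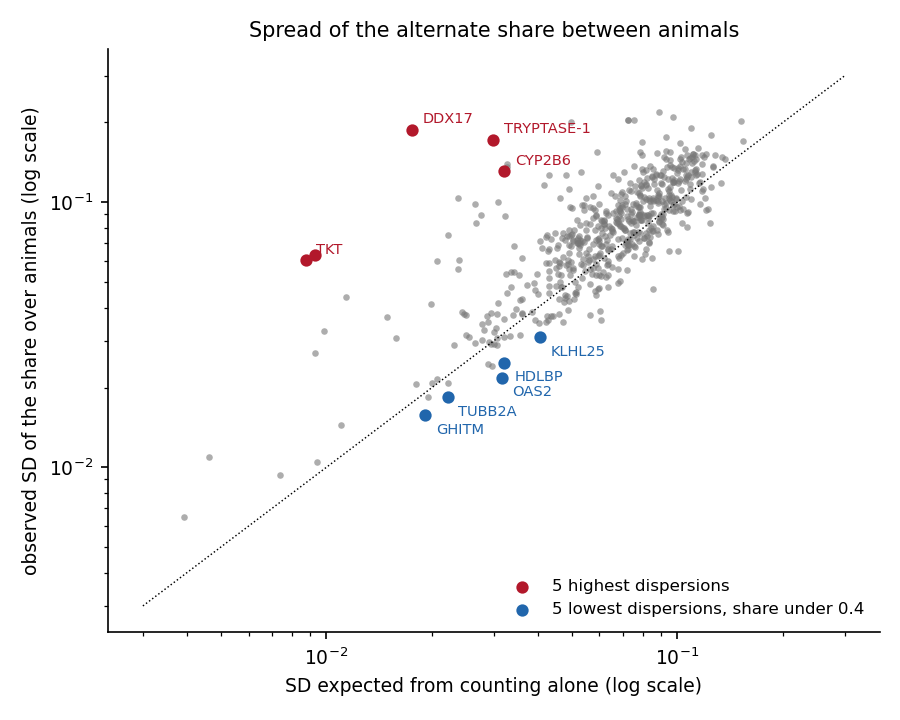
Observed SD of the alternate share over heterozygous animals (y axis, log scale) against the SD expected from counting alone (x axis, log scale) for the 590 members (grey), with the 5 highest dispersions in red and the 5 lowest of those with a mean share under 0.4 and a median of at least 100 reads in blue. The dotted line marks equal SDs; DDX17 lies far over it (observed SD 0.188), and GHITM under it (0.0157).

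A list of families known for many close copies, chosen by the start of the gene symbol (ribosomal proteins, alpha and beta tubulins, keratins and others), had 56 autosomal A-to-G type SNPs in the table, of which 2 (3.57%) were members. They were TUBB2A and TUBA1A, an alpha tubulin with 0.794 ± 0.0474 (SD, n = 17) at position 136795202 of chromosome 3. TUBG2, a gamma tubulin that the list did not cover, held 2 further A/G members on chromosome 11, with 0.191 ± 0.0634 (SD, n = 17) at position 42215470 and 0.2003 ± 0.0664 (SD, n = 18) at 42215489. Of 49 such SNPs in 28 genes of the adipose list, matched by symbol, 4 (8.16%) were members. HSL, the hormone-sensitive lipase, is on the list under another symbol and so was not counted. It held 1 member, at position 49949096 of chromosome 14, with 0.509 ± 0.0598 (SD, n = 18). In FASN, the fatty acid synthase, the 2 members lay 10 bp apart on chromosome 11, at positions 49953283 and 49953293, with shares of 0.495 ± 0.203 and 0.480 ± 0.170 (SD, n = 18) at medians of 13.5 and 14 reads.

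PLIN4, a coat protein of lipid droplets, held the other 2, 8 bp apart on chromosome 5 and both A/G. The shares were 0.220 ± 0.0440 at position 17196967 and 0.137 ± 0.0328 at 17196975 (SD, n = 17), at medians of 1414 and 1281 reads. At the first the animals ran from 0.179 through 0.201 to 0.295, and they differed beyond counting error at both (dispersions 18.2 and 13.2, adjusted p = 4.10e-50 and 7.54e-34).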

How the data were processed

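Per the labels and the methods, RNA-Seq reads of 18 libraries were aligned to Oar v3.1 with STAR, and SNPs and genotypes were called from the same reads with GATK (3.4-46 in the submitters' processing notes). The authors deposited raw counts of reads with the reference and the alternate allele for each SNP and animal, with the genotype call and annotation, at SNPs with at least 10 reads of both alleles in at least 5 animals. The authors' own statistic, P-value and allele share per SNP were not used.

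Alternate shares were computed in animals called 0/1. The likelihood ratio test used reads summed over these animals, the dispersion was the Pearson chi-square per degree of freedom, and the quasi-binomial F test moderated it with limma 3.58.1 in R 4.3.3. Tests covered all SNPs of the table (Python 3.11.15, NumPy 2.4.6, pandas 2.3.3, SciPy 1.17.1) and were tested on simulated data. Counting error assumes independent reads, and no molecular identifiers were used.

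Members and gene lists were chosen with earlier results of these data known. Named members were those in known editing targets, the 10 lowest and 5 highest shares among members heterozygous in all animals at a median of at least 50 reads, the 5 genes with most members (ties in alphabetical order), stop, start and splice site changes, the 5 highest and 5 lowest dispersions, the latter at shares under 0.4 and medians of at least 100 reads, and the longest run. No sequence was printed, since no Oar v3.1 genome was used here. A table column written PS910 was taken as the animal labelled RS910. Some items that these rules name are not reported here.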

Additional observations from a re-analysis of the deposited data

Results flagged for a closer look

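Chromosome X held no member. Its SNPs entered the text above through the X-linked calls of RS929 and the other animals and through the counts of reads and SNPs over the table. They also entered the adjustment and background percentages over all SNPs tested. The 8 editing target genes in the table include FLNA. FLNA, an actin crosslinking protein known as an editing target, had a missense and splice region A/G SNP at position 77281281 of chromosome X, heterozygous in 17 of 18 animals. The share was 0.225 ± 0.0769 (SD, n = 17), from 0.106 through 0.207 to 0.372 at a median of 227 reads, with a dispersion of 9.21. It was noted as a signal outside the autosomal members. Both males, which carry a single X chromosome, were among the heterozygous animals, with shares of 0.106 and 0.247 at 218 and 227 reads. The same held at 8 of the 12 X-linked A-to-G type SNPs heterozygous in 15 or more animals, FLNA included. Among them was a 3' UTR A/G SNP of the RNA helicase DDX3X at position 38493428, named after its values were seen, which was heterozygous in all 18 animals with a share of 0.178 ± 0.0253 (SD, n = 18), and 0.176 and 0.180 in the males. The other listed FLNA SNP, a synonymous A/G change at position 77267432, was heterozygous in 5 animals with a share of 0.475.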

How the results depend on the processing

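Of the 590 members, 236 were heterozygous in all 18 animals and 312 had at least 30 reads in every heterozygous animal; a limit of 14 animals gave 788, of 16 animals 467, and heterozygosity counted from reads 475. In all 18 animals were 2.94% of A-to-G type SNPs, with a median share of 0.403. Another member lay within 10 bp of 89 members, within 100 bp of 151, and any listed SNP within 100 bp of 354. Using every animal with at least 20 reads whatever its call, which by construction adds homozygous animals, gave heterogeneity at 393 members and a median share of 0.455, and moved the mean share across 0.5 at BAG5 66876330 (0.528) and 66876360 (0.511), CD97 9456716 (0.516), 9456722 (0.514) and 9462729 (0.536), and DDX17 214150734 (0.463). Of the other alternatives for the named members 184 kept the value within its SD and 1 did not, AFAP1L1 58250937 at 0.390 under that setting. Allelic imbalance was called at 339 to 443 members under its alternatives. Leaving out each animal in turn gave 367 to 380 members with imbalance, 131 to 139 with heterogeneity and a median share of 0.466 to 0.469. The animal left out at CYP2B6 was chosen after seeing the data. No paired analysis was possible because all animals belong to a single group. Depth limits single shares: at the median of 36 to 67 reads per animal, small differences between animals are not detectable. Only SNPs that passed the authors' filter are listed, so distances count listed SNPs only.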
